A study of Sus scrofa with 8 samples.

Results

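The respiratory chain and ATP synthase were described in pig liver through 81 probe sets of 64 genes. They are the probe sets of the array whose annotation gives a single symbol that begins NDUFA, NDUFB, NDUFC, NDUFS, NDUFV, UQCR or ATP5, begins COX with a digit from 4 to 8, or is SDHA, SDHB, SDHC, SDHD, CYC1 or CYCS. The array holds 10069 probe sets with a single symbol, of 6765 genes. CYC1 had no probe set of this kind. Each liver came from 1 animal, 4 of the Korean native pig (KNP), an indigenous breed, at 7 months of age, and 4 of the commercial Yorkshire breed (YS) at 6 months. RNA was taken at the tip of the largest liver lobe of pigs that were kept alike, and each animal had its own Affymetrix array. Breed and age cannot be told apart in this design. The sources used here give neither sex nor hybridization date.

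The respiratory chain passes electrons from NADH (complex I) and from succinate (complex II) through ubiquinone, complex III and cytochrome c to oxygen at complex IV. Complexes I, III and IV move protons out of the mitochondrial matrix, and ATP synthase (complex V) lets them flow back and makes ATP. Hepatocytes are rich in mitochondria and use this ATP for glucose production, urea synthesis and protein secretion.

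By complex, 39 of the probe sets (32 genes) were counted with complex I and 6 (4 genes) with complex II. Complex III had 2 (2 genes), cytochrome c 1, complex IV 9 (8 genes) and complex V 19 (14 genes). The 5 others, of 3 genes, are the NDUFAF assembly factors, which help to build complex I and are not part of it. NDUFA4 was counted with complex IV, of which it is a subunit despite its name. ATP5S was counted with complex V by its symbol alone. The lower 40% of probe sets by mean log2 intensity over the 8 arrays were left out of the test, which kept 74 of the 81, of 63 genes. One probe set each of ATP5I, ATP5J, COX7C, COX8H, NDUFAF2, NDUFS3 and NDUFS6 was left out, and COX8H was the gene with no other. Intensities of different probe sets depend on their probes, so brightness and summed intensities below do not rank the amounts of transcripts. None of the 13 subunits that mitochondrial DNA encodes was found by symbol in the array annotation, so the account covers subunits encoded in the nucleus.

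The arrays carried a scaling by the submitters, with a mean of 499.8 between the percentiles 2 and 98 on each, and medians from 153 to 180. The brightest probe set of an array read 50730 to 60066 in KNP and 83646 to 95919 in YS, and bright probe sets as a class were lower in KNP, so each difference is given on the deposited scale and, where it matters, after quantile normalization, which gives every array one distribution. The spiked hybridization controls lay between 2747 and 4230 on KNP arrays and between 5167 and 7651 on YS arrays (exact permutation test, two-sided, p = 0.0286, the smallest p that 4 against 4 arrays allow). The actin 3' to 5' ratio, a sign of RNA length, ran from 2.68 to 6.45 in KNP and from 8.39 to 11.8 in YS (exact permutation p = 0.0286). The GAPDH ratio ran from 2.3 to 3.77 and from 3.07 to 4.05 (exact permutation p = 0.314). The part of these signals in the differences below was not tested. Of 9 probe sets of hepatocyte markers, ALB among them, 6 were called lower in KNP on the deposited scale and 0 after quantile normalization. Among all tested, 0.611% and 0.0278% were called lower. The summed intensity of these markers was 301204 to 343840 in KNP and 477526 to 508850 in YS. All 9 lay above a mean log2 intensity of 13, where 14.8% of all tested probe sets were called on the deposited scale. Their median difference was −0.60 on the deposited scale and −0.03 after quantile normalization. For all tested probe sets above 13 it was −0.35 and −0.04. Markers of some other liver cells had differences of the other sign. All 6 tested probe sets of endothelium lay higher in KNP, with RAMP2 called higher on both scales. So did all 3 tested of Kupffer cells and all 3 of T cells, none of these called. Summed over all probe sets of a list, tested or not, endothelium intensity was 4042 to 4786 in KNP and 2719 to 4676 in YS. For Kupffer cells it was 3640 to 7731 and 2496 to 4853, and for T cells 368 to 724 and 271 to 548. Of 3 stellate cell probe sets tested 1 lay higher and 2 lower (median −0.05). Of 2 red blood cell probe sets 1 lay higher and 1 lower (median −0.24), and the 1 of bile duct lay higher. None of these was called. The part of these markers in the differences below was not tested. In such bulk tissue fewer cells of a type and less RNA per cell cannot be told apart, and the part of the array scale was not tested.

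No subunit passed the test between the breeds. With limma, 0 of 74 probe sets had an adjusted p under 0.05 in either direction, against 61 (0.424%) called higher in KNP and 88 (0.611%) called lower among the 14399 probe sets tested. After quantile normalization 0 of 74 were called as well, where 10 (0.0694%) were called higher and 4 (0.0278%) lower among all tested. At such shares 74 probe sets would hold few calls or none, so the absence of calls says little about the members. At an unadjusted p under 0.05, 3 of the 74 lay higher in KNP (4.05%; NDUFAF3, NDUFB7 and NDUFC2) and 3 lower (4.05%; ATP5G3, ATP5J and COX6C), below the shares of 7.07% and 8.06% among all tested. After quantile normalization these were 5 higher (6.76%; COX5B, NDUFAF3, NDUFC2, SDHB and SDHD) and 2 lower (2.7%; ATP5J and NDUFB10), beside 7.22% and 7.02% of all tested. The values of the 4 KNP animals lay all above those of the 4 YS animals for 1 of the 74, NDUFAF3 (1.35%, against 4.01% of all tested), and all below for 1, COX6C (1.35%, against 5.67%). The smallest adjusted p of a member was 0.139, for COX6C.

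The differences were small and centred near 0. Over the 74 probe sets the median difference, KNP minus YS on the log2 scale, was −0.02, with 35 higher and 39 lower and a range from −0.81 to 0.68; over all probe sets tested it was −0.0086. After quantile normalization the medians were −0.0013 and 0.0028, and 37 lay higher and 37 lower. The 95% confidence interval of the difference stayed within 2-fold in either direction for 71 of the 74 (95.9%), against 74.4% of all tested. The exceptions were CYCS, ATP5I and one probe set of NDUFA1. Within 1.5-fold it stayed for 39 (52.7%, against 25.1%). The values of one breed lay close together: the median SD within a breed was 0.21 in log2, against 0.32 over all tested. Bright probe sets have less spread in general, and the members are bright, with a median mean log2 intensity of 11.47 against 8.65. In the classes of mean log2 intensity 10 to 11, 11 to 12 and 12 to 13 the SD of members was 0.24, 0.21 and 0.19, and that of all tested 0.26, 0.26 and 0.25; above 13 both were 0.19.

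**Figure D1:**
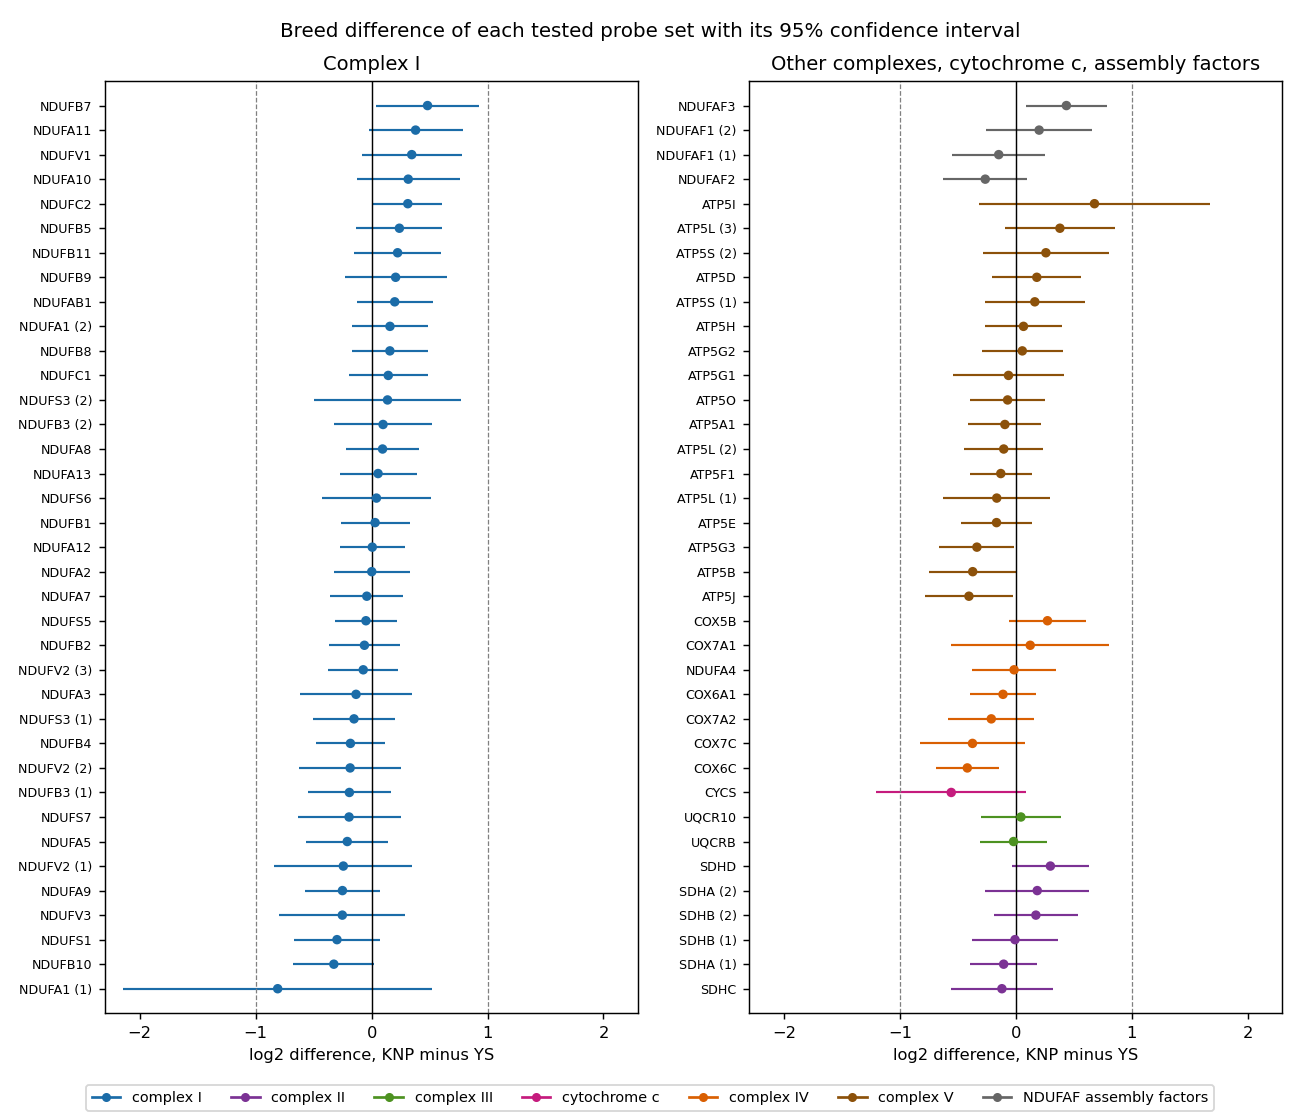
The log2 difference KNP minus YS of each of the 74 tested probe sets (points) with its 95% confidence interval (lines), complex I at the left and the other groups at the right; broken lines mark 2-fold, and a number in brackets counts the probe sets of one gene from the lowest difference up. The points lie between −0.81 and 0.68, and the interval crosses a 2-fold line for NDUFA1 (1), CYCS and ATP5I.

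Complex I, the entry for electrons from NADH, had 20 tested probe sets higher and 17 lower in KNP, with a median of 0.0060 (−0.0083 after quantile normalization) and none called. Its core subunits carry the flavin and the iron-sulfur clusters that take the electrons to ubiquinone. Of the 8 probe sets of the core genes NDUFS1, NDUFS3, NDUFS7, NDUFV1 and NDUFV2, 2 lay higher and 6 lower, with a median of −0.17 (−0.13 after quantile normalization). The other 29 probe sets, of accessory subunits that surround the core, had 18 higher and 11 lower and a median of 0.04 (0.0061 after quantile normalization). The 8 core probe sets are of 5 genes: 3 are of NDUFV2, all lower, and 2 of NDUFS3, with opposite signs. They were also dimmer, with a median mean log2 intensity of 9.99 against 11.43 for the other 29. This split was not part of the planned description by complex, and no test was run between these groups of subunits.

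Among the core subunits NDUFV1, which binds NADH and the flavin, had the highest difference. Its values in KNP animals 1 to 4 were 1377, 1718, 1374 and 1194, and in YS animals 1 to 4 they were 1118, 1457, 1108 and 812. The groups overlap, and the difference was 0.35 (SE 0.20, limma adjusted p = 0.439). NDUFS1, the largest iron-sulfur subunit, had the lowest, with 1893, 2096, 1893 and 1369 in KNP and 1925, 2495, 2301 and 2142 in YS. Here 2 of the KNP animals lay just under the lowest YS animal, at 1925, and 1 above it, and the difference was −0.30 (SE 0.17, limma adjusted p = 0.436). The choice of NDUFV1, NDUFS1 and, below, NDUFC2 was made after seeing their values; the rule for other names is given with the processing.

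NDUFB7, an accessory subunit of the membrane arm, had the largest positive difference in complex I. It lay at 1059, 1271, 1180 and 895 in KNP and at 747, 934, 948 and 550 in YS, with 3 KNP animals above every YS animal and the fourth between them. The difference was 0.48 (SE 0.20, 95% confidence interval 0.04 to 0.93, limma adjusted p = 0.293), and 0.43 after quantile normalization. NDUFA11, which also sits in the membrane arm, followed with 0.38 (SE 0.18, limma adjusted p = 0.361) at 1750, 1551, 1238 and 1396 in KNP and 921, 1455, 1202 and 1002 in YS. Only YS animal 2 reached into the KNP values there. NDUFC2, another membrane arm subunit, lay at 4900, 5429, 4142 and 4889 in KNP and 4050, 3793, 3530 and 4163 in YS, so the breeds overlapped by a single pair, 4142 and 4163. Its difference was 0.31 (SE 0.14, limma adjusted p = 0.309) and 0.32 after quantile normalization.

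In the other direction NDUFB10, an accessory subunit of the membrane arm, lay at 3448, 3690, 2943 and 2414 in KNP and 3835, 4253, 3847 and 3570 in YS. KNP animal 2 alone reached above the lowest YS value, and the difference was −0.33 (SE 0.16, limma adjusted p = 0.363; −0.33 after quantile normalization too). NDUFB4, the brightest probe set of complex I, showed −0.18 (SE 0.14), at 6569 ± 860 in KNP and 7413 ± 376 in YS (SD, n = 4 per breed; limma adjusted p = 0.561). NDUFA2, the one nearest to 0, was at 3795 ± 526 and 3774 ± 348, with a difference of 0.0015 and a 95% confidence interval from −0.33 to 0.33.

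The widest spread was in one of the 2 probe sets of NDUFA1, a small accessory subunit of the membrane arm. The probe set whose name ends in A1_s_at gave 3471, 7084, 605 and 1210 in KNP and 5142, 3547, 3691 and 2599 in YS, so KNP held both its highest and its lowest values. The other, which ends in S1_at, gave 3411, 3568, 2909 and 3059 in KNP and 3318, 3168, 2620 and 2527 in YS on the same arrays. The first showed −0.81 (SE 0.60, 95% confidence interval −2.14 to 0.52) and the second 0.16 (SE 0.15). The first ran from −1.40 without KNP animal 2 to −0.23 without KNP animal 3. The ending _s_at marks, in the naming of the array maker, probes that can match more than 1 transcript. The UQCRB probe set and the tested one of NDUFAF2 carry it too. Their SD within a breed was 0.13 and 0.16 in log2, against 1.14 for this NDUFA1 probe set. The part of such matches in its spread was not tested.

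Complex II oxidizes succinate to fumarate in the tricarboxylic acid cycle and hands the electrons to ubiquinone; all of its subunits are encoded in the nucleus, and all 4 were measured. None was called, the median of the 6 probe sets was 0.08 (0.05 after quantile normalization), and 3 lay higher and 3 lower. SDHB, the iron-sulfur subunit, gave 16497, 13929, 11241 and 12153 in KNP and 12258, 14906, 10489 and 10126 in YS with its brighter probe set. The breeds overlap, and the difference was 0.17 (SE 0.17, limma adjusted p = 0.665), but 0.38 after quantile normalization (limma adjusted p = 0.290). Its other probe set showed −0.0071 (SE 0.17), and −0.06 after quantile normalization.

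SDHD, a membrane anchor of complex II, lay at 7417, 4918, 6979 and 6015 in KNP and 4816, 5567, 5049 and 4938 in YS. KNP animals 1, 3 and 4 were above every YS animal and KNP animal 2 was among them; the difference was 0.30 (SE 0.15, limma adjusted p = 0.385) and 0.33 after quantile normalization. SDHC, the other anchor, had a difference of the opposite sign, −0.12 (SE 0.20, limma adjusted p = 0.820), at 2783 ± 696 in KNP and 2977 ± 444 in YS (SD, n = 4 per breed). For SDHA, the flavoprotein that oxidizes succinate, the brighter probe set showed −0.10 (SE 0.13; 5881 ± 587 and 6317 ± 515) and the other 0.18 (SE 0.20; 2845 ± 718 and 2468 ± 423), with adjusted p by limma of 0.751 and 0.713.

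Complex III, which passes electrons from ubiquinol to cytochrome c, was measured through UQCR10 and UQCRB, both small subunits without a redox centre, and not through its catalytic subunits. UQCR10 was at 4389 ± 574 in KNP and 4270 ± 666 in YS (SD, n = 4 per breed), a difference of 0.04 with a 95% confidence interval from −0.30 to 0.39. UQCRB was at 4939 ± 188 and 5029 ± 607, a difference of −0.02 with an interval from −0.31 to 0.27. Both intervals lie within 1.5-fold.

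CYCS encodes cytochrome c, the soluble carrier between complexes III and IV, which also triggers apoptosis once released. Its values were 661, 732, 1804 and 765 in KNP and 1181, 1799, 1279 and 1184 in YS. KNP animals 1, 2 and 4 were below every YS animal, while KNP animal 3 was the highest of all 8. The difference was −0.56 (SE 0.30, 95% confidence interval −1.21 to 0.09, limma adjusted p = 0.405) and −0.61 after quantile normalization. Without KNP animal 3 it was −0.88 with an adjusted p by limma of 0.0737; over all the settings tried the adjusted p of CYCS ran from 0.0737 to 0.603.

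Complex IV, cytochrome c oxidase, reduces oxygen to water. Of its 7 tested probe sets, 2 lay higher and 5 lower in KNP, with a median of −0.11 on the deposited scale, −0.05 after quantile normalization and 0.06 after cyclic loess normalization, another way to align the arrays. COX6C, a small structural subunit and the brightest of the complex, stood at 12999, 11946, 10478 and 13294 in KNP and at 17358, 16684, 14845 and 16072 in YS. Every KNP animal was below every YS animal. The difference was −0.42 (SE 0.12, 95% confidence interval −0.69 to −0.15, limma unadjusted p = 0.00592, adjusted p = 0.139). It was −0.17 after quantile normalization (limma adjusted p = 0.510).

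COX7C, also a small structural subunit, gave 7115, 6058, 6460 and 9269 in KNP and 7483, 12748, 10594 and 7215 in YS, with a difference of −0.37 (SE 0.21, limma adjusted p = 0.428) and overlap between the breeds. COX5B, which holds a zinc ion on the matrix side, was the member of the complex with the largest positive difference. It lay at 8069, 8490, 7988 and 6539 in KNP and 5937, 7562, 6954 and 5364 in YS, with KNP animal 4 the one below 2 of the YS animals. The difference was 0.27 (SE 0.15, limma adjusted p = 0.424) and 0.33 after quantile normalization (limma adjusted p = 0.316). COX6C, COX7C and COX5B were named for their large differences in either direction, so their signs are a description.

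Several subunits of complex IV exist as tissue forms. COX7A1, the form of heart and skeletal muscle, lay at 3697, 3056, 2372 and 3042 in KNP and at 4641, 3701, 2261 and 1481 in YS. The YS animals spread more widely than the KNP animals and enclosed them; the difference was 0.12 (SE 0.31, limma adjusted p = 0.884), and −0.17 without YS animal 4. COX7A2, the form found in liver and most tissues, was at 4945 ± 1109 in KNP and 5637 ± 456 in YS (SD, n = 4 per breed), a difference of −0.21 (SE 0.17, limma adjusted p = 0.589). COX6A1, the liver form of its subunit, was at 8045 ± 424 and 8725 ± 1069, a difference of −0.11 (SE 0.13, limma adjusted p = 0.733). NDUFA4 was at 8929 ± 1474 and 9013 ± 1523, a difference of −0.01 with a 95% confidence interval from −0.38 to 0.35. COX8H, the heart form of its subunit, was under the filter, at 103, 14.7, 237 and 116 in KNP and 40.2, 82.7, 26.2 and 26.0 in YS, and was not tested. The probe sets of the striated muscle markers CKM, MYH7 and TNNT3 were all under the filter too, with a summed intensity of 56.8 to 195 in KNP and 96.2 to 299 in YS.

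**Figure D2:**
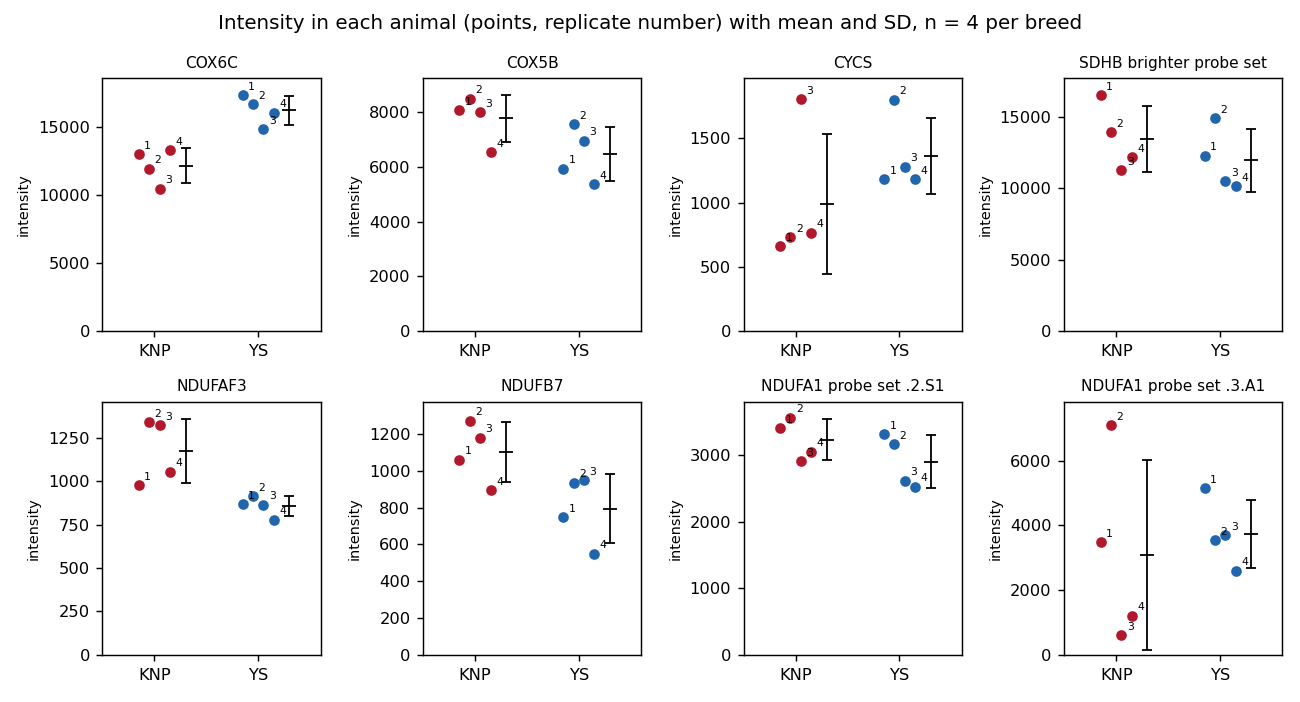
Intensity (vertical axis, from 0, array units) of 8 probe sets of 7 genes in each KNP (red) and YS (blue) animal, numbered by replicate, with the mean and SD of each breed (n = 4). COX6C and NDUFAF3 show no overlap between the breeds, KNP animal 3 stands at 1804 in CYCS beside 661 to 765 in the other KNP animals, and the 2 probe sets of NDUFA1 differ in spread.

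Complex V, ATP synthase, couples a proton turbine in the inner membrane to a catalytic head in the matrix. Of the 17 tested probe sets counted with it, 7 lay higher and 10 lower in KNP on the deposited scale. After quantile normalization 10 lay higher and 7 lower. The median changed from −0.07 to 0.05 with this normalization, and none was called on either scale. These counts include the 2 probe sets of ATP5S, counted here by symbol alone, which lay higher on both scales. Their differences were 0.16 and 0.26, and 0.13 and 0.23 after quantile normalization. The tested subunits of the catalytic head and its central stalk were 4, ATP5A1, ATP5B, ATP5D and ATP5E. Of these 3 lay lower on the deposited scale (median −0.13) and 3 higher after quantile normalization (median 0.15). The 11 probe sets of other subunits, ATP5S left out, had 4 higher and 7 lower (median −0.07). After quantile normalization 5 of them lay higher and 6 lower (median −0.04). This grouping was not planned either, and no test was run on it.

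ATP5B, the catalytic beta subunit, gave 7759, 10029, 7261 and 6907 in KNP and 11087, 12168, 7762 and 10470 in YS. YS animal 3 lay within the KNP values, and the other YS animals lay above all of them. The difference was −0.37 (SE 0.17, limma adjusted p = 0.342) and −0.29 after quantile normalization. ATP5E, the epsilon subunit of the central stalk and the brightest probe set of the complex, was at 17371 ± 2357 in KNP and 19444 ± 2247 in YS (SD, n = 4 per breed). Its difference turned from −0.17 (SE 0.14) on the deposited scale to 0.15 after quantile normalization and 0.11 after cyclic loess.

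ATP5J, coupling factor 6 in the stalk that holds the head in place, showed −0.40 (SE 0.17, 95% confidence interval −0.78 to −0.03, limma adjusted p = 0.295) and −0.45 after quantile normalization, where its adjusted p of 0.271 was the smallest of all members. Its values were 948, 737, 857 and 1154 in KNP and 1082, 1207, 1208 and 1366 in YS, and KNP animal 4 was the one that reached into the YS range. Its second probe set was under the filter.

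ATP5G1, ATP5G2 and ATP5G3 encode the same mature protein, subunit c of the membrane ring. ATP5G3 lay at 10510, 10156, 8952 and 8021 in KNP and 10369, 14323, 12232 and 10716 in YS, a difference of −0.34 (SE 0.15, limma adjusted p = 0.311) with overlap in KNP animal 1 only, and −0.22 after quantile normalization. ATP5G1 was at 2875 ± 839 and 2947 ± 580 (difference −0.06, SE 0.22) and ATP5G2 at 4002 ± 521 and 3861 ± 609 (difference 0.06, SE 0.16; SD, n = 4 per breed).

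ATP5I and ATP5L encode small membrane subunits, e and g, known from the contacts between ATP synthase molecules. ATP5I gave 319, 965, 1248 and 1106 in KNP and 441, 1057, 276 and 480 in YS, which overlap over most of their range. Its difference, 0.68 (SE 0.45, 95% confidence interval −0.32 to 1.68, limma adjusted p = 0.520), was the highest of the 74 tested probe sets and, after that NDUFA1 probe set, the least precise of them. The second probe set of ATP5I, under the filter at 14.4 to 79.5, showed −0.54. Of the 3 probe sets of ATP5L the brightest, at 5919 ± 1073 in KNP and 6307 ± 581 in YS (SD, n = 4 per breed), showed −0.10, and the others 0.38 (SE 0.22, limma adjusted p = 0.439) and −0.16.

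Among the 14 genes with several probe sets, 10 had differences of opposite sign, and among the 9 with several tested probe sets, 7 did. None of these differences was called, and signs of uncalled differences do not show that the probe sets of a gene disagree. The probe sets of a gene share its arrays and animals and are not replicates of a breed.

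The NDUFAF assembly factors help to join the parts of complex I. NDUFAF3 stood at 978, 1338, 1323 and 1055 in KNP and at 868, 915, 864 and 779 in YS, with all KNP animals above all YS animals. The difference was 0.44 (SE 0.16, 95% confidence interval 0.09 to 0.79, limma unadjusted p = 0.0193, adjusted p = 0.232) and 0.38 after quantile normalization. NDUFAF2 showed −0.26 (SE 0.17), at 352 ± 50.7 in KNP and 424 ± 33.7 in YS (SD, n = 4 per breed; limma adjusted p = 0.491). The probe sets of NDUFAF1 showed −0.15 and 0.20, with SE of 0.18 and 0.21.

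Brightness went with the sign of part of these differences on the deposited scale. Above a mean log2 intensity of 13 lay 438 of all tested probe sets, 14.8% of them called, with a median difference of −0.35, and 9 members with a median of −0.13. After quantile normalization these medians were −0.04 and 0.0059. In the class from 12 to 13 the 14 members had a median of 0.01 and the 403 probe sets in all −0.07, and in the class from 11 to 12 the 22 members had −0.02 and the 870 in all −0.0030. In the class from 10 to 11 the 10 members had a median of 0.13 and the 1637 in all 0.04, which were 0.10 and −0.01 after quantile normalization. Below 10 the 19 members had −0.0071 and the 11051 in all −0.0021. The members above 13 include COX6C, COX6A1, NDUFA4, ATP5A1, ATP5B, ATP5E, ATP5F1, ATP5G3 and the brighter SDHB probe set, so all but SDHB belong to complexes IV and V.

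**Figure D3:**
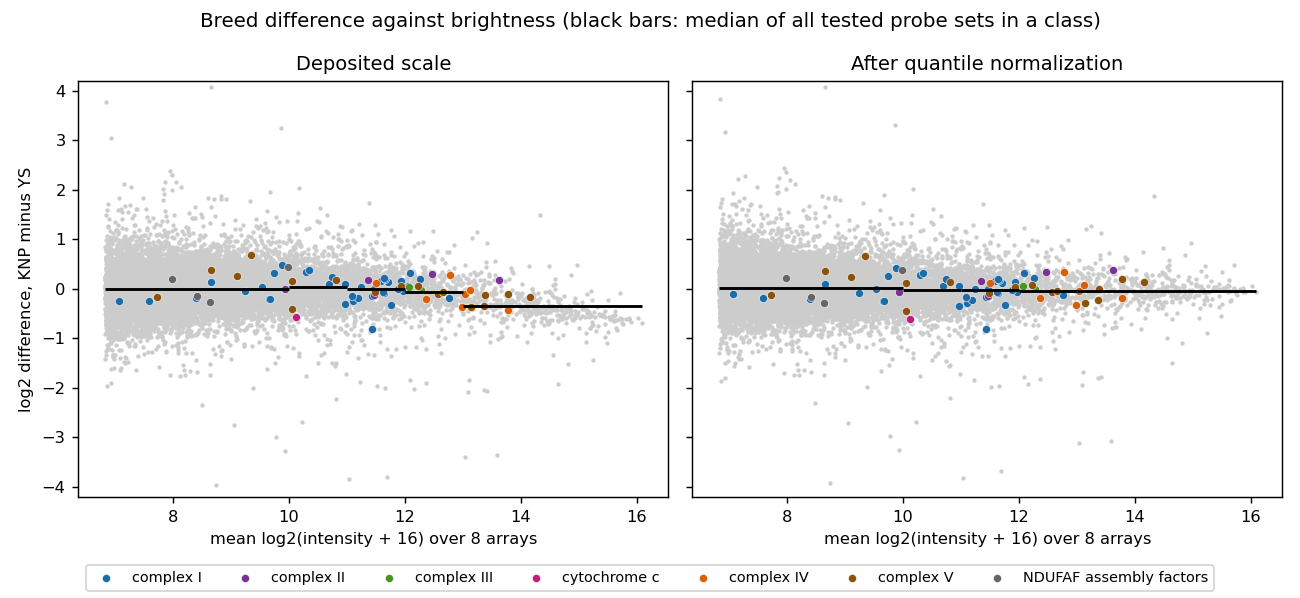
Log2 difference KNP minus YS (vertical axis) of the 14399 tested probe sets (grey) and the 74 of the respiratory chain and ATP synthase (coloured by group) against mean log2 intensity over the 8 arrays, on the deposited scale (left) and after quantile normalization (right); black bars give the median of all probe sets in each class of brightness. At the left the bar above 13 lies at −0.35 and at the right at −0.04, and the members lie near 0 across the range.

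Within each breed some animals stood high or low in many subunits at once. KNP animal 4 was the lowest of the 4 KNP animals in 41 of the 74 probe sets (55.4%), against 20% of all tested, and in 24 of the 37 of complex I. YS animal 2 was the highest YS animal in 41 of the 74 (55.4%, against 21.8%). KNP animal 2 was the highest of its breed in 34 (45.9%, against 25%), and YS animal 4 the lowest of its breed in 34 (45.9%, against 21.9%). After quantile normalization the first pair of counts was 37 (50%) and 35 (47.3%), against 25% and 25.3% of all tested. The second pair was 34 (45.9%) and 35 (47.3%), against 26.2% and 23.8%. The subunits are measured on the same arrays, so these counts describe the animals or arrays and carry no test.

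On the deposited scale the median deviation from the mean of the 8 arrays ran, for complex I, from −0.15 in KNP animal 4 to 0.11 in KNP animal 1, with 0.10 in YS animal 2 and −0.08 in YS animal 4. For complex V it ran from −0.17 in KNP animal 4 to 0.20 in YS animal 2, and for complex IV from −0.17 in KNP animal 3 to 0.29 in YS animal 2. For complex II KNP animal 3 was lowest, at −0.21, and KNP animal 1 highest, at 0.26. Each breed thus held both high and low animals, and in each of these 4 complexes the range over the animals of one breed was wider than the median difference between the breeds.

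**Figure D4:**
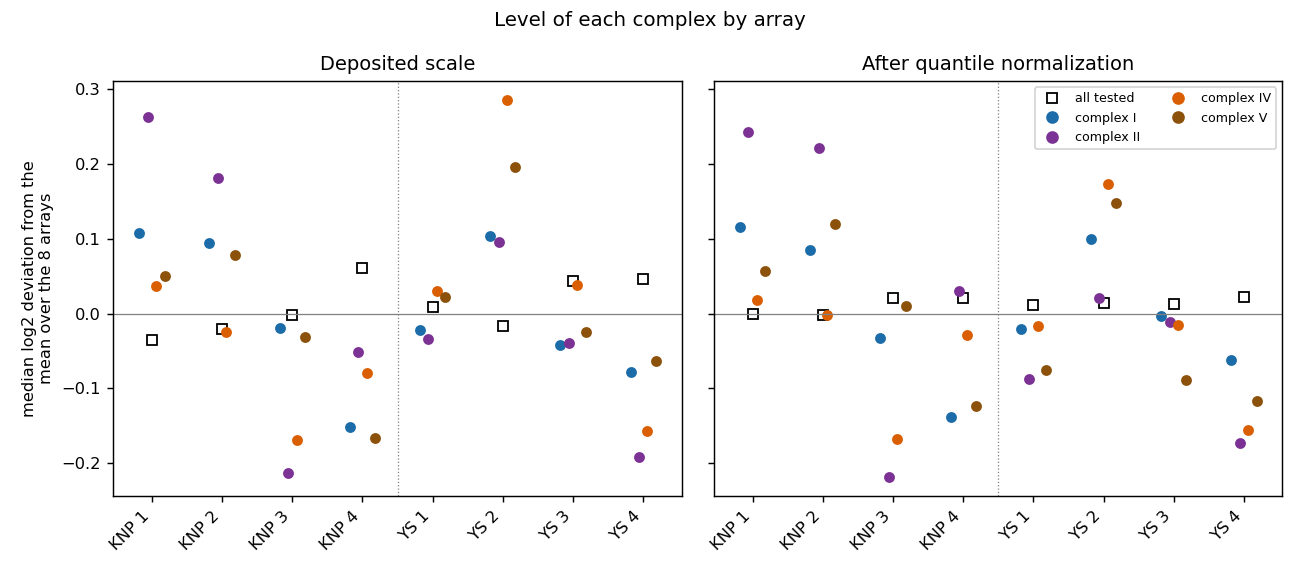
Median log2 deviation of each complex from its mean over the 8 arrays, for every array, on the deposited scale (left) and after quantile normalization (right); open squares give all tested probe sets. YS animal 2 and KNP animals 1 and 2 lie above 0 for complex I, KNP animal 4 and YS animal 4 below, and the breeds overlap in each complex drawn.

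Genes that serve the chain were taken from lists of textbook members. Found on the array by symbol were 15 of 44 listed assembly factor genes and 17 of 19 of the tricarboxylic acid cycle list. Over all tested probe sets 1.03% were called on the deposited scale and 0.0972% after quantile normalization. Lists this short would mostly hold no call at such shares. For the assembly factors of the complexes, the NDUFAF genes included, 0 of 19 tested probe sets were called by limma on either scale, with 13 higher and 6 lower and a median of 0.08. TMEM70, which helps to assemble ATP synthase, showed −0.52 with its brightest probe set (878 ± 194 in KNP, 1244 ± 69.1 in YS; SD, n = 4 per breed; limma adjusted p = 0.211) and 0.68 and 0.37 with the other tested ones. For the tricarboxylic acid cycle and the entry of pyruvate into it, 0 of 19 were called on either scale, with 5 higher and 14 lower and a median of −0.20 (−0.17 after quantile normalization). CS, citrate synthase, showed −0.54 (SE 0.16, 2474 ± 358 in KNP and 3576 ± 377 in YS, limma adjusted p = 0.135), and −0.27 with its second probe set. PC, pyruvate carboxylase, which starts glucose production from pyruvate, showed 1.06 (SE 0.28; 5672 ± 2700 and 2486 ± 191; limma adjusted p = 0.110). TMEM70, CS and PC were named after their values were seen.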

How the data were processed

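Per the labels, total RNA of 8 livers was labelled with biotin and hybridized to Affymetrix porcine arrays, and GCOS 1.3 appears in the submitters' processing notes. What the authors deposited is a linear intensity for each probe set, scaled per array; the signal algorithm is not given in the sources used here. Before the test, 124 control probe sets were left out, log2(intensity + 16) was taken, the lower 40% by mean log2 were removed, and 14399 probe sets were fitted with limma 3.58.1 in R 4.3.3 (lmFit, eBayes with an intensity trend, breed as the only term, two-sided). Benjamini-Hochberg adjustment covered all 14399, and the threshold was 0.05. Differences are KNP minus YS in log2, on a scale where the pseudocount of 16 understates those of dim probe sets; values are mean ± SD over 4 animals. The number of arrays limits precision. The limma p-values set each difference against the spread between animals, which the labels call biological replicates. That spread is moderated over all probe sets tested. The fit was tested on simulated data.

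The named members are, in each complex, the brightest tested probe set, the 2 highest and 2 lowest differences and the one nearest to 0, all probe sets of SDHA, SDHB, SDHC, SDHD and CYCS, tissue forms of one subunit, and genes with probe sets of opposite sign over 1 apart. The members, the lists and this rule were chosen with earlier results of these data known. All 81 probe sets matched the pig gene table by gene ID with the same symbol. Probe sets with several symbols were not used, and neither sequences nor coordinates are given. The labels give no pairing of animals by replicate number. The alternatives were a pseudocount of 1 or 64, quantile and cyclic loess normalization, median centring, other filters, no trend, array weights, a replicate block, a threshold of 0.01, 1 value per gene and each animal left out in turn.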

Additional observations from a re-analysis of the deposited data

Results flagged for a closer look

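CYCS had 1 animal far from the others of its breed. KNP animal 3 stood at an intensity of 1804, against 661, 732 and 765 in the other KNP animals, and its gap to the nearest of them was 0.856 of the range of the breed on the log2 scale, above Dixon's 95% critical value for 4 samples. It was 1 of 68 groups of 4 examined, where chance flags about 1 in 20.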

How the results depend on the processing

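No member was called under any of the 18 alternatives, and the smallest adjusted p by limma was 0.0737 (CYCS without KNP animal 3). The median over the members stayed between −0.06 and 0.06. Over all probe sets the 149 calls became 95 with median centring, 35 without the filter, 14 with quantile or cyclic loess normalization, 13 without the intensity trend, 5 at a threshold of 0.01, and 8 to 119 with each animal left out in turn (13, 23, 8 and 12 without YS replicates 1 to 4, and 53, 107, 78 and 119 without KNP replicates 1 to 4). Age is tied to breed and depth has no counterpart on arrays; dim probe sets such as COX8H could not be ordered. The cause of these changes was not tested.

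The replicate number as a block left 8 calls over all probe sets and 0 among the members. The labels do not say that animals with the same number form a pair. The deviations of animals with the same number correlated at −0.0203, 0.0125, −0.0148 and 0.0507. Those of animals with different numbers correlated at −0.0945 to 0.127. Such values cannot show whether animals with the same number shared a step.

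The median of complex IV turned to 0.059 with cyclic loess. That of complex V turned to 0.108 with cyclic loess and 0.046 with quantile normalization, and ran from −0.100 to 0.042 with each animal left out (0.042 without KNP replicate 4). That of the NDUFAF factors was −0.147 with the lower 60% left out or 1 probe set per gene and 0.201 with no filter. Of 34 single members, 12 changed sign under some alternative, none with a main difference over 0.166 in size, and 576 other values kept direction and side. With cyclic loess SDHA turned to 0.023, UQCRB to 0.081, COX6A1 to 0.059, NDUFA4 to 0.163 and ATP5E to 0.108. With quantile normalization NDUFA2 turned to −0.015, UQCRB to 0.0018, NDUFA4 to 0.078 and ATP5E to 0.15. With median centring the dimmer SDHB probe set turned to 0.069, UQCRB to 0.056, NDUFA4 to 0.061 and ATP5G1 to 0.013, and with array weights NDUFA4 to 0.029. With each animal left out in turn the ranges were −0.065 to 0.102 for NDUFA2, −0.079 to 0.109 for the dimmer SDHB probe set, −0.235 to 0.036 for SDHC, −0.043 to 0.120 for UQCR10, −0.078 to 0.053 for UQCRB, −0.172 to 0.374 for COX7A1, −0.085 to 0.097 for NDUFA4, −0.231 to 0.108 for ATP5G1 and −0.025 to 0.138 for ATP5G2.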

Other observations

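Other genes of the mitochondrion gave no call either, with limma and an adjusted p under 0.05 on the deposited scale or after quantile normalization. With 1.03% and 0.0972% of all tested called on these scales, lists this short would mostly hold none. The lists were covered in part. Found on the array by symbol were 11 of 11 genes of carriers and pores and 9 of 12 of import and folding. For ubiquinone synthesis it was 4 of 12 and for the regulators 4 of 11. Of 15 tested probe sets of carriers and pores of the mitochondrial membranes, 8 lay higher and 7 lower in KNP (median 0.0081). VDAC1, a pore of the outer membrane, stood at 4623 ± 589 in KNP and 6623 ± 591 in YS with its brighter probe set (SD, n = 4 per breed; log2 difference −0.52, SE 0.14, limma adjusted p = 0.113) and showed −0.37 with the other. SLC25A3, which brings in the phosphate for ATP synthesis, showed 0.19 (SE 0.15). Of 12 probe sets for protein import and folding, 8 lay higher and 4 lower (median 0.11); the chaperonins HSPD1 and HSPE1 showed −0.25 and −0.27 on the deposited scale and 0.07 and 0.08 after quantile normalization.

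The ubiquinone synthesis list had 8 tested probe sets, 4 higher and 4 lower (median 0.04). The regulators had 6 tested probe sets of 4 genes, 2 higher and 4 lower (median −0.12). PPARGC1A, a coactivator of mitochondrial genes, varied widely within the breeds, at 736 ± 616 in KNP and 743 ± 209 in YS (difference −0.35, SE 0.48, limma adjusted p = 0.777). VDAC1, SLC25A3, HSPD1, HSPE1 and PPARGC1A were named after their values were seen.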
